A study of Mus musculus with 2 samples.

Results

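The genes described are 44 members of the actin system of mouse erythroblasts: the cytoplasmic actins, the ARP2/3 complex and the proteins that bind, cut, cap, crosslink or pull on actin filaments. They were chosen by name, as rows of the deposited table, with the FPKM values of both groups of cells already known, so their levels and differences are given as a description. All 44 have a row of their own among the 25791 rows of the table, and 40 of them reached an FPKM of at least 1 in at least 1 group. FPKM counts sequenced fragments relative to transcript length and to the mapped fragments of a library, so levels of different genes can be set side by side.

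The cultures were ESREs (Extensively Self-Renewing Erythroblasts), which are red cell precursors able to proliferate for long periods outside the animal, and their strain background is labelled C57/bl6. The series title speaks of transgenic β-Yac mice, while the labels of these samples name the background alone. Expansion means ESREs that were still proliferating, and maturation means ESREs taken 1 day into their differentiation. The series text mentions biological duplicates, but the table holds 1 value per gene and group, so the differences come without replicates, tests or errors, and the depth is unknown. In bulk RNA of this kind, fewer cells of a type and less RNA per cell cannot be told apart.

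Actin monomers assemble into filaments that push and shape the membrane. Profilin and beta-thymosins hold the monomer pool, cofilin with its helpers Wdr1 and Cap1 takes filaments apart, and the ARP2/3 complex, switched on by WASP and WAVE proteins, starts new branches. Capping proteins stop growth, filamins, alpha-actinins and plastins tie filaments together, ERM proteins and talin link them to the membrane, and myosin II contracts them. Maturing red cell precursors give up much of this dynamic system and build short actin protofilaments into a spectrin membrane skeleton.

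Actin-system RNA was lower after 1 day of maturation, unevenly across the roles. Summed over the 44 genes, FPKM was 1596 in expansion and 1007 in maturation, or 0.388% and 0.242% of the summed FPKM of all rows. With globin and small RNA rows left out of the total, these shares were 0.482% and 0.361%. The log2 ratio of maturation over expansion, computed on FPKM + 1, was below 0 for 38 of the 40 expressed members, with Cfl2 and Tpm4 as the exceptions. It was also below 0 for 6866 of all 9263 expressed rows. The median over the 40 was -0.69, beside -0.25 over all 9263 expressed rows, and 33 of the 40 lay below that general median.

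Of the 40, 15 were lower by 2-fold or more in maturation (log2 ratio of -1 or less), and 0 were higher by as much. Over all expressed rows 6.70% were at least 2-fold lower and 3.13% at least 2-fold higher. Since the members were picked with this contrast known, nothing is read from that gap. When every ratio was centred on the median of all expressed rows, 9 members were at least 2-fold lower and 34 of the 44 lay below 0. Over all rows that centring turned 621 lower and 290 higher rows into 363 and 420. The members just inside the 2-fold line were Coro1c at -1.01, Wdr1 at -1.01 and Vasp at -1.03, and those just outside it were Ezr at -0.90 and Actg1 at -0.84.

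**Figure D1:**
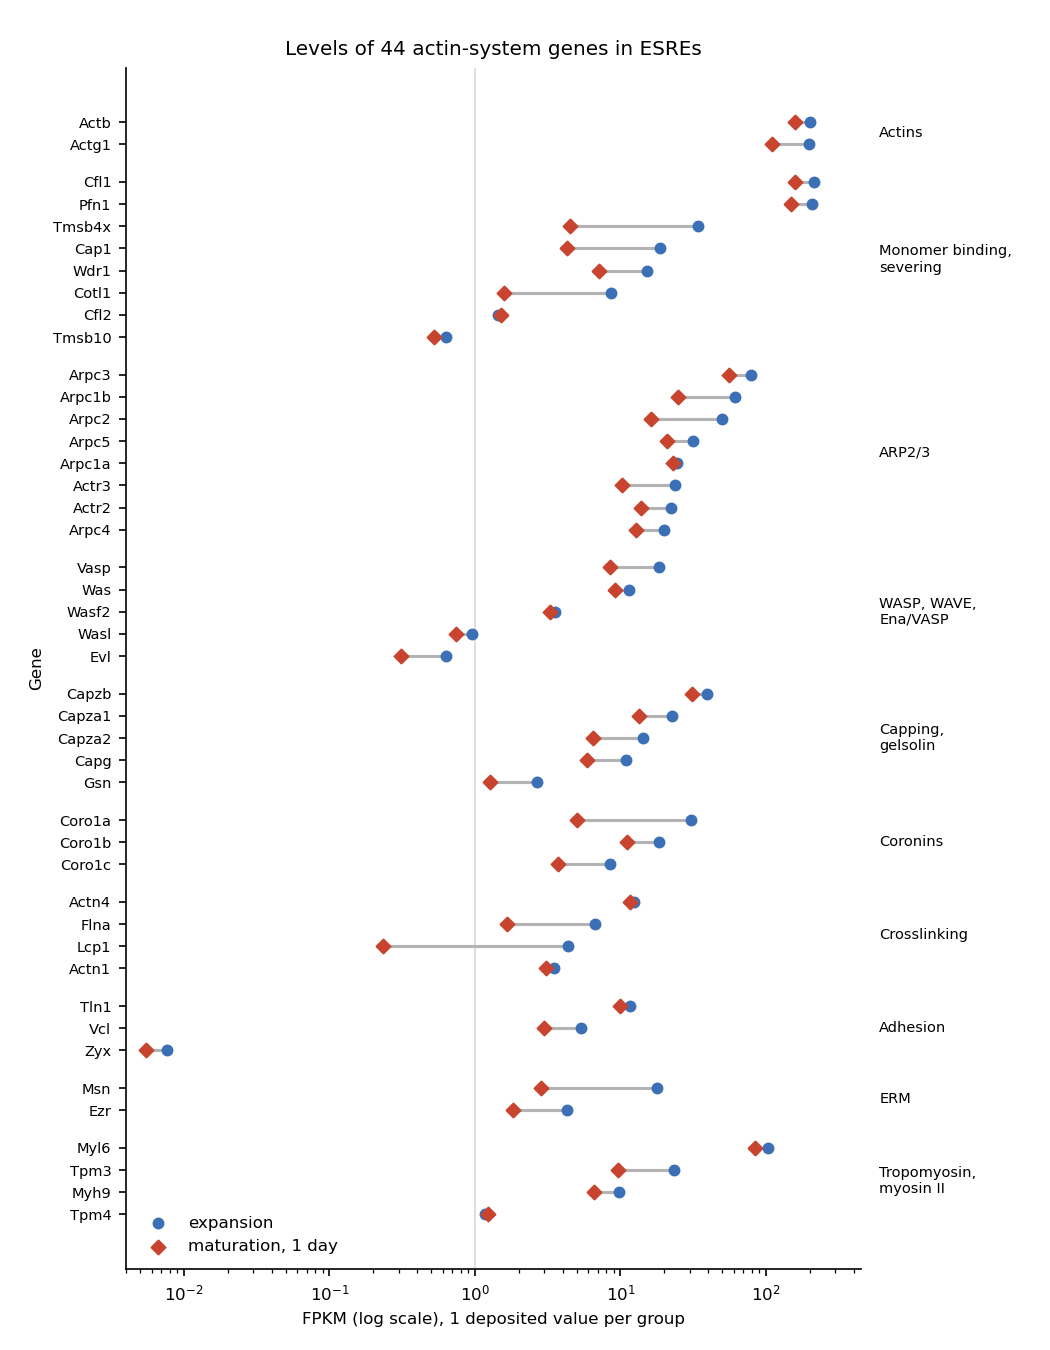
FPKM on a log axis for each of the 44 genes, grouped by role, with a circle for expansion and a diamond for 1 day of maturation; the grey line joins the 2 deposited values of a gene and the vertical line marks an FPKM of 1. Actins, Cfl1 and Pfn1 stayed above 100 FPKM in both groups, while Tmsb4x, Coro1a, Msn and Lcp1 show the longest lines to the left.

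The most abundant members kept most of their level. Cfl1, the main cofilin of non-muscle cells, was at 213 FPKM during expansion and 158 at maturation. Pfn1, profilin, was at 206 and 148 FPKM, and Myl6, the essential light chain of myosin II, at 103 and 83.8. With the actins Actb and Actg1 these 5 genes made up 57.7% of the members' FPKM in expansion and 65.3% in maturation. None of the 5 was at least 2-fold lower, whereas 11 of the 23 members with 10 to 100 FPKM in expansion were. Among all expressed rows, 2.57% of those above 100 FPKM and 8.66% of those between 10 and 100 were at least 2-fold lower.

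The 2 cytoplasmic actins differed in the size of their difference between groups. Actb, beta-actin, on chromosome 5 (mm9 143633468 to 143668403), was at 201 FPKM during expansion and 157 at maturation (log2 ratio -0.35). Actg1, gamma-actin, on chromosome 11 (mm9 120179476 to 120218470), was at 199 and 111 FPKM (-0.84). The pair was near parity in expansion, with Actb at 50.2% of their sum, and Actb held 58.7% in maturation. A share within one group does not depend on how the 2 groups were scaled.

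Other rows share a locus or sequence with the actins, and their part in the actin values was not tested. The row Gm3903 is listed at the Actb locus and stood at 63.2 and 80.6 FPKM, opposite in direction to Actb. Summed, the Actb and Gm3903 rows were at 264 and 238 FPKM, a log2 ratio of -0.15, which lies above the median of all expressed rows. Gm12715, a pseudogene in RefSeq, holds 51.1% of the 50-base stretches of the longest Actg1 coding transcript (GENCODE M21). Its row was at 212 and 117 FPKM, as high as Actg1 itself.

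Muscle-type actin rows also carried values. Acta1 was at 67.9 FPKM during expansion and 52.1 at maturation, Actc1 at 36.8 and 31.4, Acta2 at 22.7 and 17.4, and Actg2 at 18.6 and 15.7. Exact 50-base stretches shared with Actb or Actg1 made up 2.004% of the Acta1 transcript, 0.352% of Acta2 and 0% of Actc1 and Actg2. Those shares count perfect matches alone, and the read length was not known. These rows were chosen after their values were seen.

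Beta-thymosin Tmsb4x had the lowest log2 ratio of the members. This small protein holds actin monomers in reserve. Tmsb4x, on chromosome X (mm9 163624825 to 163647150), was at 33.9 FPKM during expansion and 4.50 at maturation, 7.54-fold lower (log2 ratio -2.67). A second row at that locus, LOC100503054, was at 38.2 and 6.30 FPKM, and the sum of both was 6.68-fold lower. Its paralog Tmsb10 was at 0.629 and 0.527 FPKM, under 1 in both groups. In rank, Tmsb4x stood at place 958 of all rows in expansion and 3868 in maturation.

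The members Cap1, Cotl1 and Wdr1 were lower by larger folds than the cofilin gene Cfl1. Cap1, the cyclase-associated protein that recharges actin monomers, was at 18.8 and 4.26 FPKM (4.42-fold lower). Cotl1, coactosin-like protein, was at 8.65 and 1.60 FPKM (5.42-fold lower). Wdr1, which speeds the severing of cofilin-bound filaments, was at 15.3 and 7.09 FPKM (2.16-fold lower). The Cfl1 ratio was 1.35-fold by the same measure. Cfl2, the muscle-type cofilin, was at 1.43 and 1.501 FPKM, and Dstn, destrin, a related protein that was no member, at 14.0 and 3.95 FPKM. Cfl1 therefore made up 93.2% of the cofilin and destrin FPKM in expansion and 96.7% in maturation.

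The genes of the ARP2/3 complex, a stable assembly of ARP2, ARP3 and the ARPC subunits, had unlike ratios. Their 8 rows spanned 20.0 to 79.6 FPKM in expansion and 10.2 to 56.1 in maturation. All 8 were lower in maturation as deposited, with a median log2 ratio of -0.63, and 3 were at least 2-fold lower. Of all 9263 expressed rows, 6866 were lower, and 6.70% were at least 2-fold lower. With centring on the median of all rows, or rescaling without small RNA and globin rows, Arpc1a moved above 0 and the other 7 remained below.

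Arpc2, which with Arpc4 forms the core of the complex, was at 50.3 FPKM during expansion and 16.1 at maturation (3.12-fold lower). Arpc4 itself was at 20.0 and 12.8 FPKM (1.56-fold lower). These partners stood further apart in expansion than in maturation. Actr3, the ARP3 subunit, was at 23.7 and 10.2 FPKM (2.32-fold lower), and Actr2, the ARP2 subunit, at 22.4 and 13.8 (1.62-fold lower). Arpc3 was at 79.6 and 56.1 FPKM, and Arpc5 at 31.4 and 20.8. The Arpc5 paralog Arpc5l was at 8.21 and 7.34 FPKM, so Arpc5 made up 79.3% of the pair and then 73.9%.

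The alternative ARPC1 subunits, whose genes are neighbours, had unlike ratios. Arpc1a ends at base 145869625 and Arpc1b starts at base 145875125 of chromosome 5 (mm9), with 5499 bases between. Arpc1a was at 24.5 and 23.0 FPKM (1.06-fold), while Arpc1b, the form that predominates in blood cells, was at 61.2 and 25.0 (2.45-fold lower). Arpc1b thus made up 71.4% of ARPC1 FPKM in expansion and 52.1% in maturation. Of the 50-base stretches of the Arpc1b transcript, 42.2% occur in some other annotated gene. The gene that shares most, Pdap1 (28.9%), was at 10.9 and 9.81 FPKM, a log2 ratio of -0.14. The pseudogene row Gm5637 shares 10.96% and was at 94.6 and 39.5 FPKM, with a log2 ratio of -1.24 beside -1.26 for Arpc1b.

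Among activators of branching, the WASP and WAVE genes stood close to their expansion level. Was, the WASP protein of blood cells, was at 11.4 and 9.19 FPKM, and its broadly expressed paralog Wasl at 0.961 and 0.738. Wasf2, a WAVE protein, was at 3.56 and 3.30 FPKM. Among the Ena/VASP proteins, which lengthen filaments at their tips, Vasp was at 18.5 and 8.51 FPKM (2.17-fold lower) and Evl at 0.635 and 0.311. Of the 3 genes of this role that reached an FPKM of 1, only Vasp was at least 2-fold lower.

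Capping proteins showed a graded pattern. Capzb, the beta subunit of CapZ, was at 39.5 and 31.2 FPKM, while its alpha partners Capza1 and Capza2 were at 22.7 and 13.4 and at 14.3 and 6.44 FPKM. Capza2 was 2.22-fold lower and the other 2 were within 2-fold. Capg and Gsn, of the gelsolin family, which cap filaments or cut them in response to calcium, were at 10.96 and 5.88 FPKM and at 2.66 and 1.26 FPKM. Gsn was 2.11-fold lower as a plain ratio, but its log2 ratio on FPKM + 1 was -0.69.

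The order of the coronins differed between the groups. Coro1a, the coronin of blood cells, on chromosome 7 (mm9 133843288 to 133848268), led the type 1 coronins in expansion at 30.6 FPKM and was at 5.05 in maturation (6.06-fold lower). Coro1b was at 18.4 and 11.04 FPKM, and Coro1c at 8.504 and 3.73. Coro1a made up 53.2% of the 3 in expansion and 25.5% in maturation, when Coro1b held 55.7%. Ptprcap, whose annotated transcripts share 20.8% of the Coro1b stretches, was at 10.9 and 0.7905 FPKM, and its part in the Coro1b value was not tested. Coro2a, a further coronin outside the members, was at 10.4 and 0.761 FPKM.

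**Figure D2:**
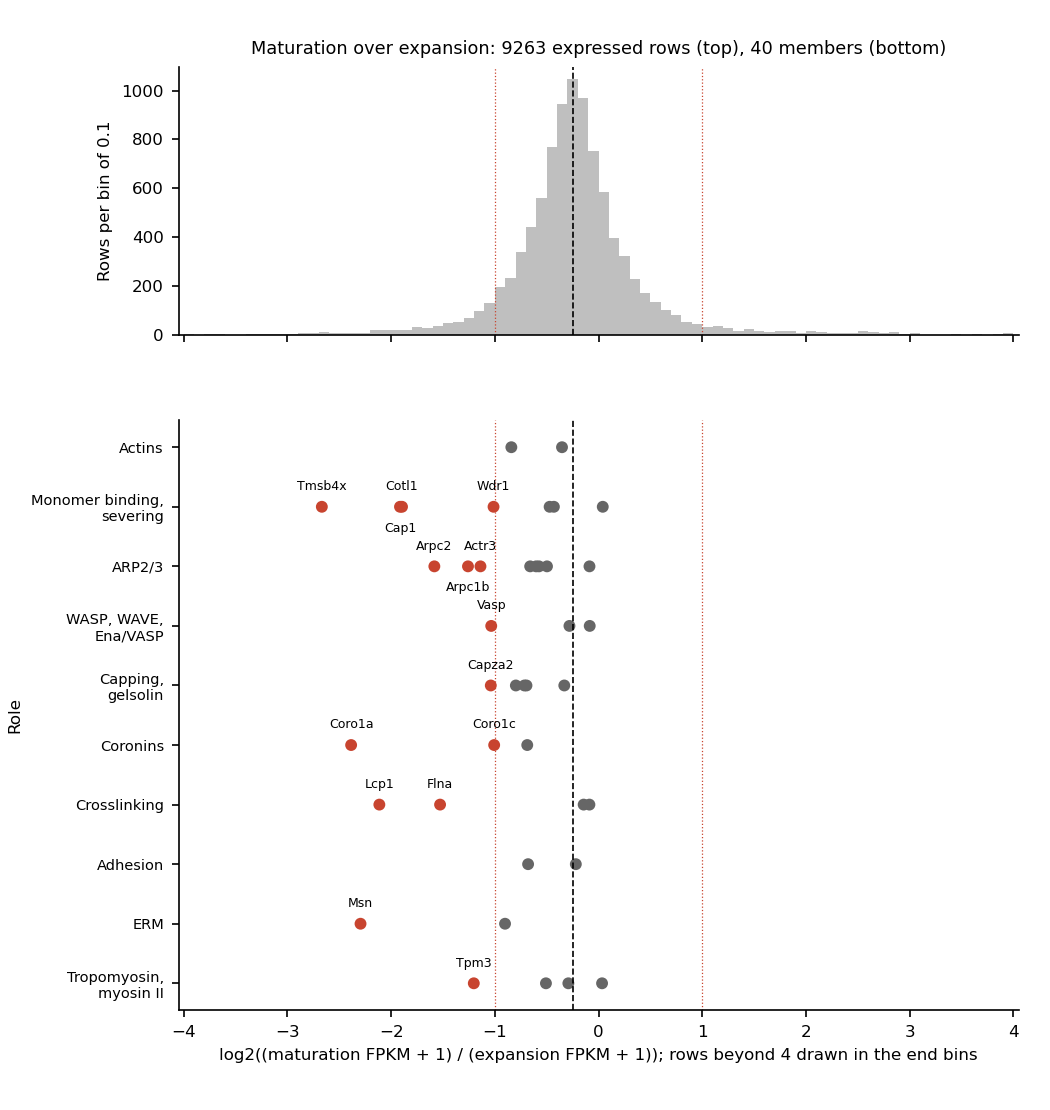
The upper panel is a histogram of the log2 ratio of maturation over expansion, on FPKM + 1, over 9263 expressed rows; the lower panel places each of the 40 expressed members by role, with those at -1 or less in red and named. The dashed line marks the median of all expressed rows (-0.25) and the dotted lines mark 2-fold; no member lies to the right of the upper 2-fold line.

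Among 4 crosslinkers, Lcp1 and Flna were lower by 2-fold or more, and the alpha-actinins were within 2-fold. Lcp1, L-plastin, which bundles filaments in white blood cells, was at 4.33 FPKM during expansion and 0.232 at maturation, the highest fold among the members (18.7-fold lower). Flna, filamin A, was at 6.69 and 1.67 FPKM (4.013-fold lower). Actn4 and Actn1, the non-muscle alpha-actinins, were at 12.4 and 11.6 FPKM and at 3.52 and 3.09. Both actinins lay slightly below 0 on the log2 scale as deposited (-0.09 and -0.14) and above 0 when centred or rescaled.

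ERM proteins join filaments to membrane proteins, and the leading gene of the family differed between the groups. Msn, moesin, on chromosome X (mm9 93291384 to 93363892), was at 17.8 FPKM during expansion and 2.83 at maturation (6.29-fold lower). Ezr, ezrin, was at 4.28 and 1.83 FPKM (2.34-fold lower, log2 ratio -0.90). Rdx, radixin, the remaining ERM gene and no member, was at 11.8 and 9.36 FPKM. Msn made up 52.5% of ERM FPKM in expansion and 20.2% in maturation, while Rdx went from 34.9% to 66.8%.

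Of 2 expressed adhesion linkers, 0 passed the 2-fold line. Tln1, talin 1, which couples integrins to actin, was at 11.7 and 9.89 FPKM, below 0 as deposited (-0.22) and above 0 when centred or rescaled. Vcl, vinculin, which reinforces talin, was at 5.36 and 2.97 FPKM (1.80-fold lower, log2 ratio -0.68). The gene Ap3m1 shares 39.2% of the Vcl stretches and stood at 3.24 and 3.27 FPKM. Zyx, zyxin, was near 0 in both groups, at 0.00771 and 0.00550 FPKM.

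Myosin II held its make-up while tropomyosin did not. Myh9, the main non-muscle myosin II heavy chain, was at 9.78 and 6.59 FPKM, and made up 64.9% and 65.2% of the Myh9, Myh10 and Myh14 sum. Myl6 made up 82.2% and 83.1% of its pair with Myl6b. Tropomyosins coat filaments and decide which proteins may bind them. Tpm3 was at 23.3 and 9.57 FPKM (2.44-fold lower), and LOC100503483 at the same locus was at 22.9 and 9.34. Tpm4 was at 1.18 and 1.23 FPKM. Tpm1, which was no member, was at 15.4 and 13.6 FPKM. Tpm1 went from 36.5% to 52.9% of tropomyosin FPKM as Tpm3 went from 55.3% to 37.1%. Those shares leave out LOC100503483. Summed with it, the Tpm3 locus was at 46.3 and 18.9 FPKM, above Tpm1 in both groups.

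**Figure D3:**
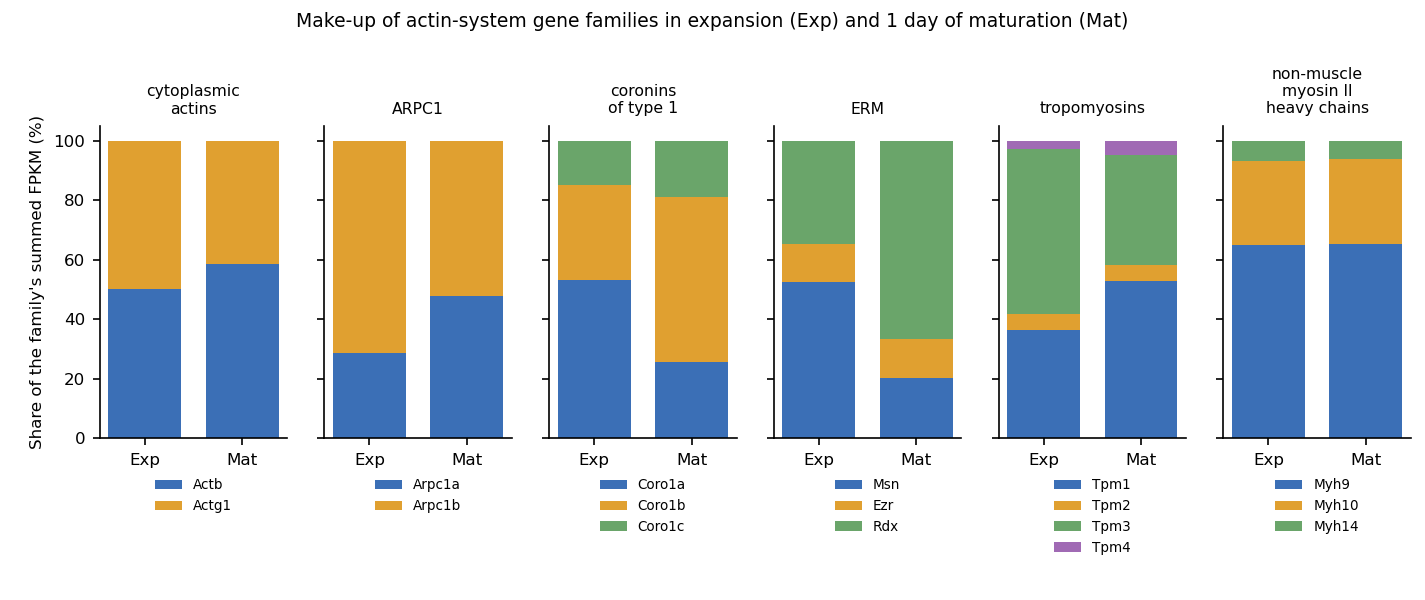
Stacked bars give each gene's percentage of the summed FPKM of its family in expansion (Exp) and after 1 day of maturation (Mat), from 1 deposited value per gene and group. Arpc1b, Coro1a, Msn and Tpm3 take smaller shares in maturation, while the 3 myosin II heavy chains keep theirs (Myh9 64.9% and 65.2%). Other rows listed at the locus of a family gene, such as LOC100503483 at Tpm3, are left out.

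Exact sequence shared with other genes differed between members, and its effect on their FPKM was not tested. Of the 44, 15 share no exact 50-base stretch of their longest coding transcript with any other gene in GENCODE M21, 12 share up to 10% and 17 share more. Tmsb4x, Coro1a, Msn, Flna, Cotl1, Wdr1, Vasp and Capza2 are among the 15, and Arpc2 shares 0.216%. The annotation behind the FPKM rows was not given and may hold other genes. LOC100503054 is listed at the Tmsb4x locus, and LOC100504329, at 4.51 and 1.81 FPKM, at the Capza2 locus. The largest shares among the 17 were those of Capza1 (77.4%), Tpm3 (62.4%), Actg1 (56.7%), Actr3 (49.8%) and Tmsb10 (43.5%). Without the 17, 10 of 25 expressed members passed the lower 2-fold line, and the median was -0.69. Over all expressed rows the share was 6.70% and the median -0.25. Since the members were picked with this contrast known, nothing is read from that difference. Pseudogene rows that share stretches with Myl6 were higher than Myl6 itself, with Gm5526 at 119 and 96.8 FPKM and Gm8894 at 151 and 119. The sums for the members leave such rows out.

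Chromosome X holds 3 of the 15 lower members (Tmsb4x, Flna and Msn), where the fourth expressed X-linked member, Was, was within 2-fold. Over all 306 expressed X-linked rows, 7.19% were at least 2-fold lower, close to the share over all rows. Chromosome 5 held 6 expressed members, of which Arpc1b, Coro1c and Wdr1 were at least 2-fold lower, beside 5.87% of its 596 expressed rows.

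Promoter sequence was examined because actin genes are textbook targets of serum response factor (SRF), which binds the CArG box. The RefSeq promoter table (GRCm38.p6, 250 bases before to 50 after a start) held 41 of the 44, all but Actb, Coro1b and Cotl1. A CArG box, searched on both strands, was found for 4 of the 41 (9.76%), beside 1.81% of all 27025 genes in the table and 1.56% of the 5758 with an expressed row. The 4 are shown up to the start site, 5′ to 3′ on the gene's strand, with the CArG box in capitals.

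Actg1 (chr11:120348496-120348745, minus strand): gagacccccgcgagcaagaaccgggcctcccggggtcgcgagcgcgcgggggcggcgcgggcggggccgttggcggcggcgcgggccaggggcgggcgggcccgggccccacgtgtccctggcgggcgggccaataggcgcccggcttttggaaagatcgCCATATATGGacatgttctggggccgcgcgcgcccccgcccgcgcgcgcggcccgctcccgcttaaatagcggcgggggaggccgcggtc
Myl6 (chr10:128493010-128493259, minus strand, 1 of its starts): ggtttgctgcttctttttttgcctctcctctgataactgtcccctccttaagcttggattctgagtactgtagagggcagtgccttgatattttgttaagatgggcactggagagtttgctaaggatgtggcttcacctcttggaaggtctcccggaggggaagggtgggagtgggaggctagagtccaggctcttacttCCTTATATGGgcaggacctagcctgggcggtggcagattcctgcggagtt
Vcl (chr14:20929148-20929397, plus strand): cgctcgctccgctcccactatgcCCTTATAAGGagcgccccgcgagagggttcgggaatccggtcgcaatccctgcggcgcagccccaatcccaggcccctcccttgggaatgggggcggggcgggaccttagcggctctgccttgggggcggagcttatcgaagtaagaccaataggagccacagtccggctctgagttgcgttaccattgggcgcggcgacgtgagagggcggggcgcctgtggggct
Arpc4 (chr6:113377863-113378112, plus strand): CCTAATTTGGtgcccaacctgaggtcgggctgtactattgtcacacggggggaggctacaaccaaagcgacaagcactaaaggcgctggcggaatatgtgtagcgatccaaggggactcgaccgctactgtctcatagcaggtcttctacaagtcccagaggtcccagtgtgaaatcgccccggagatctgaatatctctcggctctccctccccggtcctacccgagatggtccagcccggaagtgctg

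The box begins 90 bases before the start in Actg1, 50 in Myl6, 227 in Vcl and 250 in Arpc4. None of these 4 genes was at least 2-fold lower, and their log2 ratios ran from -0.29 for Myl6 to -0.84 for Actg1. A match describes the letters in this window and is not evidence of binding. The GATA word AGATAA, on either strand, was present for 2 of the 41 (4.88%), Capza2 and Tpm3, beside 12.7% of all genes and 7.59% of those with an expressed row. The ETS word GAGGAAG was present for 4 of the 41 (9.76%), beside 15.4% and 15.5%. Taking the window with most CpG dinucleotides for each gene, the median count was 22 over the members and 8 over all genes. This count was not made for genes with an expressed row alone, so it is not a comparison with other expressed genes.

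Genes around the members were looked at through lists written down for this description with earlier results known. Among 158 such rows outside the members, 109 were expressed. Of these, 27 were lower and 3 higher by 2-fold or more, and their median log2 ratio was -0.52. Over all expressed rows the shares were 6.70% and 3.13%. With centring the counts of related rows were 16 and 5. Centring gave 363 lower rows (3.92%) and 420 higher rows among all 9263.

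Srf, the gene of SRF, was at 4.54 FPKM during expansion and 1.62 at maturation (log2 ratio -1.08). Its part in the members' values was not tested. Of the 5 expressed rows in the SRF list, 4 were at least 2-fold lower (Srf, Egr1, Ier2 and Junb), beside 6.70% of all expressed rows. The early response genes Egr1, Ier2 and Junb were at 12.5 and 0.0804 FPKM, at 11.3 and 1.92, and at 8.10 and 2.33. The SRF partners Mkl1 and Mkl2, which sense free actin monomers, were at 0.305 and 0.146 FPKM and at 0.211 and 0.107. The other SRF-list members under 1 FPKM in both groups included Fos and Fosb.

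Of 19 expressed rows of other actin-linked genes, 9 passed the lower 2-fold line, and the median was -0.94. Over all expressed rows the share was 6.70% and the median -0.25. Plek, pleckstrin, was at 15.6 and 2.57 FPKM, Myo1g, a blood cell myosin I, at 5.90 and 0.905, Tagln2, transgelin 2, at 63.2 and 18.0, and Cnn2, calponin 2, at 3.93 and 0.686. Fermt3, kindlin 3, and Ilk, integrin-linked kinase, did not share that, at 33.2 and 25.6 FPKM and at 6.64 and 8.84.

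Small GTPases such as Rac1 and Cdc42 are the switches that turn actin assembly on. Among their exchange factors, activating proteins and inhibitors, 5 of 14 expressed rows were lower by 2-fold or more (median -0.89). Over all expressed rows the share was 6.70% and the median -0.25. Arhgdib, the blood cell GTPase inhibitor, was at 114 and 33.4 FPKM, Dock10 at 2.44 and 0.311, Arhgap9 at 11.2 and 4.24, and Arhgef2 at 4.99 and 1.72. Of 8 expressed GTPases only Rhog was at least 2-fold lower, at 43.9 and 19.8 FPKM. Rac1 was at 22.2 and 12.3 FPKM, Rhob at 2.95 and 1.54, Cdc42 at 34.1 and 24.4, Rac2 at 39.6 and 35.8, and Rhoa at 26.8 and 24.5. Of 8 expressed effector kinases and phosphatases, 0 passed the 2-fold line in either direction (median -0.15). Limk2 was at 2.48 and 1.03 FPKM, Pak2 at 5.78 and 3.02, and Pak4 at 0.904 and 1.88. The difference between these lists was not tested.

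Formins start straight filaments, and WAVE works in a complex of partner proteins. Of 4 expressed formins only Diap1 had a log2 ratio of -1 or less, at 6.73 and 1.82 FPKM, beside 6.70% of all expressed rows. Fhod1 was at 1.01 and 0.222 FPKM, 4.53-fold lower as a plain ratio (log2 ratio -0.72), and Daam1 at 2.48 and 4.19. Of 11 expressed WAVE and WASP partners only Pstpip2 was at -1 or less, at 2.85 and 0.604 FPKM. Wipf1, at 3.32 and 1.21 FPKM, was 2.75-fold lower as a plain ratio (log2 ratio -0.97). Hcls1, the blood cell cortactin, was at 9.82 and 5.21 FPKM, and Nckap1l, the WAVE subunit of blood cells, at 8.51 and 5.06. Among 23 expressed paralogs of members, 4 were at least 2-fold lower: Coro2a, Dstn, Add3 and Twf2, the last at 3.43 and 1.04 FPKM.

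Most genes listed for the red cell junctional complex, where short actin filaments meet spectrin, stood the other way. The actins and Tpm3 were counted with the members and not in this list. In its 11 expressed rows, 3 passed the higher 2-fold line (Epb4.9, Spnb1 and Tmod1) and 1 the lower (Add3). Over all expressed rows these shares were 3.13% and 6.70%. The median of the list was 0.58, and 3 of its rows lay below 0. Epb4.9, dematin, was at 0.0361 and 11.99 FPKM. Spnb1, beta-spectrin, was at 5.86 and 14.1 FPKM, and Tmod1, the capping protein of red cell filaments, at 1.13 and 3.29. Paralogs within this list went separate ways: Add1 and Add2, the red cell adducins, were at 5.26 and 11.01 FPKM and at 1.39 and 3.62, while Add3 was at 6.08 and 2.41. Tmod3 was at 4.85 and 2.51 FPKM against the higher Tmod1.

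Other filament systems gave mixed values. The 4 tubulin rows listed were within 2-fold and higher in maturation as deposited, with Tuba1a at 244 and 340 FPKM, Tubb2b at 109 and 158, and Tubb5 at 87.0 and 113. Vim, vimentin, was at 1.95 and 0.373 FPKM. Sept9 was at 13.3 and 0.893 FPKM, while Sept2, Sept7, Sept6 and Sept11 were within 2-fold.

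**Figure D4:**
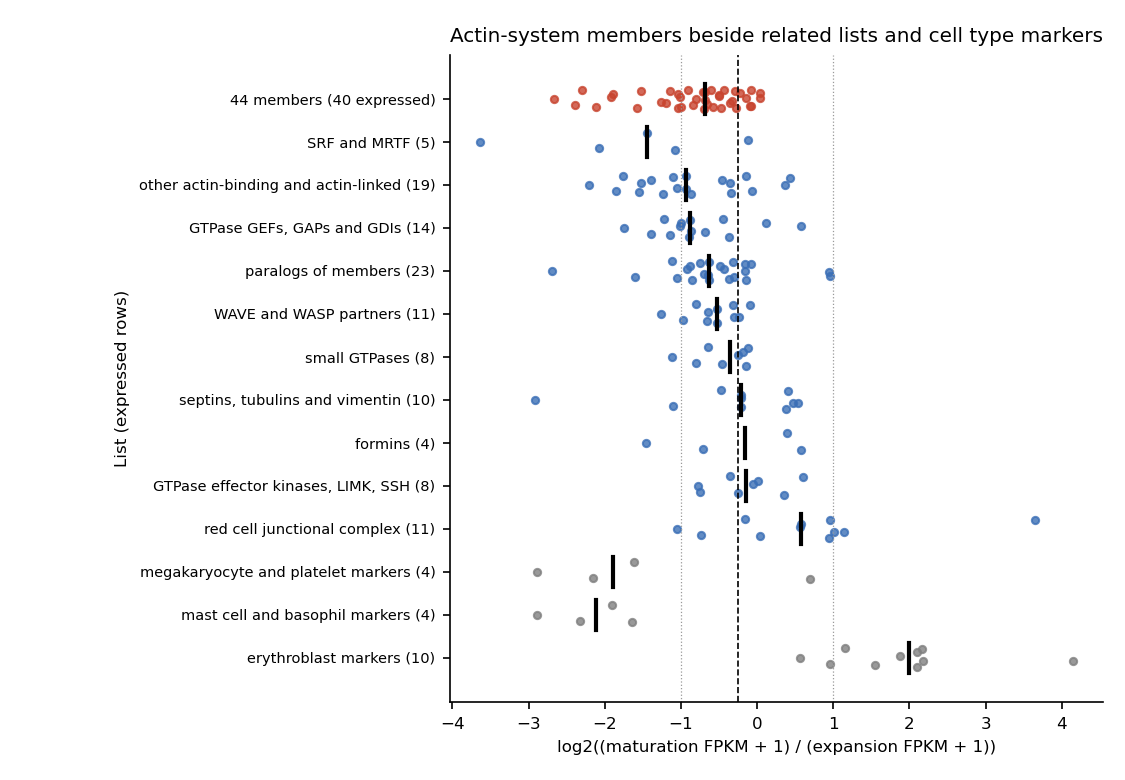
Each point is an expressed gene, placed by its log2 ratio of maturation over expansion on FPKM + 1, with 1 row for the members, 10 for related lists and 3 for cell type markers; thick bars are medians, the dashed line is the median of all expressed rows and the dotted lines mark 2-fold. The members have a median of -0.69, and the red cell junctional complex stands to the right at 0.58.

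Markers of erythroblasts, the labelled cell type, were present. All 10 erythroblast markers listed were expressed, and 8 of them stood higher by 2-fold or more, beside 3.13% of all expressed rows. Several of the steeply lower members (Lcp1, Coro1a, Msn, Tmsb4x) are also abundant in other blood cells, so the markers of those cells are given here. Of 10 megakaryocyte and platelet markers 4 reached 1 FPKM, and the list summed to 22.8 FPKM during expansion and 4.20 at maturation. Of these 4, 3 platelet membrane receptor genes were lower by 2-fold or more, in the direction of the members, beside 6.70% of all expressed rows. They were Gp5 (9.63 and 0.438 FPKM), Gp1ba (7.22 and 0.845) and Itga2b (5.15 and 0.996). Gp9 was at 0.756 and 1.84 FPKM. Pf4, Ppbp and Vwf, further genes of that lineage, were at 0.0333 FPKM or less in expansion, and Gp6 was listed at 0 there.

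Of 7 mast cell and basophil markers 4 reached 1 FPKM. All 4 were lower by 2-fold or more, beside 6.70% of all expressed rows, again in the direction of the members. Il1rl1 was at 8.92 and 1.64 FPKM, Ms4a2 at 7.07 and 0.0903, Hdc at 4.47 and 0.0945, and Fcer1a at 4.011 and 0.605. The list summed to 24.6 and 2.44 FPKM. Cpa3 stood at 0.107 FPKM during expansion, with 0 listed for the other group, and Mcpt8 was listed at 0 in both.

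Macrophage markers summed to 1.35 and 0.602 FPKM over 7 rows, nearly all from Cd68. Granulocyte markers summed to 0.0512 and 0.0595 FPKM over 8 rows and lymphocyte markers to 0.0812 and 0.101 over 6. S100a8 was listed at 0 in both groups. The 8 endothelial and stromal markers summed to 23.3 and 17.7 FPKM, of which Acta2, one of the muscle-type actin rows above, gave 22.7 and 17.4. The other 7 were each under 1 FPKM in both groups. The part of megakaryocyte and mast cell genes in the members' lower values was not tested.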

How the data were processed

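RNA-seq values of 2 groups of mouse ESREs were used. The authors deposited FPKM, with a single column for each group. The tool Cuffdiff 2.0.2 and the build mm9 come from the submitters' processing notes. For the aligner, annotation, read length, filters and handling of duplicates: not given in the sources used here.

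Members were matched by symbol. A row counted as expressed at an FPKM of at least 1 in at least 1 group. Log2 ratios used a pseudocount of 1, which understates differences of weakly expressed genes, and folds are plain ratios of FPKM. With 1 value per group no test was run. The counting procedure was tested on simulated data. For 182 of 182 microRNA rows compared, the span equalled the RefSeq length when starts were counted from 0, so starts are printed with 1 added. Promoters came from RefSeq (GRCm38.p6), and 50-base stretches were compared over all GENCODE M21 transcripts on either strand. Coordinates of promoters (GRCm38) and loci (mm9) were not mixed. All 44 members are named, with up to 4 rows of each related list by absolute log2 ratio, plus paralogs and contrasting rows chosen after their values were seen. The members and lists were chosen with earlier results of these data known. Alternatives were pseudocounts of 0.1 and 5, other filters, centring, and rescaling. Python 3.11.15, numpy 2.4.6 and pandas 2.3.3 were used. Some rows of the related lists are not reported here.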

Additional observations from a re-analysis of the deposited data

How the results depend on the processing

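The members' median log2 ratio of -0.69 ran from -0.79 (pseudocount of 0.1) to -0.44 (centring) over the alternatives run, and 0 members were higher by 2-fold or more under each of them. The count of 15 lower members, beside 6.70% of all expressed rows, was 17 with a pseudocount of 0.1, which added Ezr and Gsn, beside 14.1% of all. It was 7 with a pseudocount of 5, beside 1.60% of all. It was 9 with centring (3.92% of all) and 9 with rescaling without small RNA and globin rows (4.57% of all). Those last 2 settings each lost Actr3, Capza2, Coro1c, Tpm3, Vasp and Wdr1. Among the related genes, the lower count of 27 of 109 was 39 with a pseudocount of 0.1 (14.1% of all expressed rows) and 8 with 5 (1.60%). It was 16 with centring (3.92%) and 18 of 107 with rescaling (4.57%). With a minimum FPKM of 5, where fewer rows were counted, it was 17 of 57 (7.92%). The higher count of 3, beside 290 of all rows, was 5 with a pseudocount of 0.1, with centring or with rescaling, and 1 with a pseudocount of 5. The higher rows among all rows were then 373, 420, 395 and 166. The Msn ratio dropped between expansion and maturation 2.68-fold against Ezr and 4.37-fold against Ezr and Rdx together. The Cfl1 ratio of expansion over maturation was 1.42 against Cfl2 and 0.476 against Cfl2 and Dstn together, a turn in direction that follows from the Dstn row. Lcp1 had a log2 ratio of -3.74 with a pseudocount of 0.1 and -0.83 with 5. Locus sums and the comparison without sequence-sharing members were added after the values were seen. Depth is unknown, so no limit on low values such as those of Zyx, Tmsb10 and Lcp1 in maturation can be given. No paired analysis was possible because the table holds 1 value per group.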
